A study of Mus musculus with 24 samples.

Results

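Panthenyl ethyl ether (PEE) is the ethyl ether of panthenol, the alcohol form of pantothenic acid (vitamin B5). Its effect without any other added compound was measured as the 3 cultures of mouse vibrissa (whisker) follicles given 0.3% PEE against the 3 control cultures, which make up 6 of the 24 samples of the series. Both groups were chosen by their sample titles, and no measured value entered that choice. The follicles came from B6C3F1 mice on postnatal day 9 and stayed for 24 hours in RPMI medium with 10% fetal bovine serum, which the controls shared. No genetic change, hormone or other agent was named for either group. The other 18 samples held 0.015% pyridoxine hydrochloride (PH, a form of vitamin B6), 0.024% tocopherol acetate (TA, a form of vitamin E), both, or either or both with PEE, in groups of 3. The series asked how such vitamin derivatives act on hair shaft growth outside the body.

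Each sample was the total RNA of 10 follicles read on 1 one-colour Agilent array, and 3 independent experiments were stated. Whether those experiments used separate litters or mice was not given, so that the tests measure the spread between these samples. A whole follicle holds shaft, sheath, papilla, vessel, nerve and immune cells, so that fewer cells of a type and less RNA per cell cannot be told apart. Follicle markers were measured: all 16 hair shaft keratins, 18 of 19 inner root sheath markers and 52 of 53 keratin-associated proteins. So were 28 of 28 skeletal muscle markers and 18 of 18 blood endothelial markers. Measured means well above background on all arrays of at least 1 of the 8 groups, which 22065 of 36593 genes or transcripts reached. All 29 macrophage and 8 of 9 adipocyte markers were measured too, so that these counts do not test the tissue label. Across genes, the lowest correlation between any pair of the 6 arrays was 0.990. The 75th percentile of the array signal was 190.5, 169.5 and 155.5 in control and 146.9, 141.8 and 142.0 with PEE, so that every PEE array was dimmer than every control array before scaling. Between 58.6% and 60.9% of the spots were well above background on these arrays, and none was saturated. The number of arrays limits the precision: the median standard error of a log2 change was 0.12.

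PEE changed 2404 of the 22065 genes and transcripts tested (10.9%) at an adjusted p under 0.05, by limma over all 24 arrays with Benjamini-Hochberg adjustment over all 22065. Of these, 1148 rose (5.20% of those tested) and 1256 fell (5.69%). At least a 2-fold change was seen for 113 that rose and 178 that fell, and the median over all tested was 0.02 on the log2 scale. With the slide as a block the count was 2623. It fell to 1348 without control replicate 2, and it was 1430 without control replicate 1, 1479 without PEE replicate 2 and 1543 without PEE replicate 3. Leaving out replicate 1, 2 or 3 of every group gave 636, 522 and 1379. It was 886 with the array signal as a covariate and 1065 from the 6 arrays alone. With a normexp background correction it was 5885, and 69.5% of those were higher against 47.8% as reported. Without correction for multiple tests, 5534 had p under 0.05.

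Follicles in PEE carried more mRNA of 12 of 25 glutathione transferases, 8 of 19 genes of glutathione synthesis and cystine uptake and 17 of 29 quinone, NADPH and thioredoxin genes, several of them more than 2-fold, and more of 23 of 28 genes of cholesterol synthesis. They carried less mRNA of 36 of 41 antiviral interferon response genes, 11 of 32 chemokines and 28 of 47 cell division genes. Glutathione transferase Gsta3 was about 19.4-fold higher. Levels below are an array's signal for a probe as a percentage of that array's 75th percentile, and changes are PEE minus control on the log2 scale ± SE of the fit. A level is never set against that of another gene, since probes differ in brightness.

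By way of background, glutathione is a small thiol that neutralises electrophiles and peroxides. Cells make it from cystine-derived cysteine, glutathione transferases attach it to reactive compounds, and NADPH-dependent reductases keep the thiol systems reduced. Many of these enzymes are known targets of the transcription factor NRF2 (gene Nfe2l2), which KEAP1 holds down and which binds the antioxidant response element (ARE) with small MAF partners. Skin and follicle keratinocytes are known to use this system against oxidants and electrophiles.

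Among glutathione transferases, 12 of 25 measured members rose and 1 fell (median 0.25), beside 5.20% and 5.69% of all tested. Gsta3, an alpha-class enzyme, stood at 11.6, 18.4 and 15 in control and 278, 214 and 395 with PEE (4.28 ± 0.22, adjusted p = 1.5e-09). Gsta2 of the same class stood at 57, 67.1 and 63.7 in control and 530.3, 436 and 719 with PEE (3.14 ± 0.18, adjusted p = 5.6e-09). Gsta4, which clears the lipid peroxidation product 4-hydroxynonenal, stood at 205, 232 and 222 in control and 909, 694 and 956 with PEE (1.95 ± 0.14, adjusted p = 8.9e-08). The lowest PEE array lay far above the highest control array for all 3 alpha-class members measured. The mu class gave 6 risers of 7 measured, led by Gstm3 at 615, 582 and 558 in control and 1530, 1639 and 1654 with PEE (1.46 ± 0.11, adjusted p = 2.2e-07). The pi class gave 2 of 3, whereas none of the 4 theta-class members passed (-0.35 to 0.26). The 1 faller was Mgst3, a microsomal member (-0.40 ± 0.11, adjusted p = 0.031). Members of these classes are close in sequence, and a probe of one can also bind another, so that the split within a class is uncertain.

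Glutathione synthesis and cystine uptake gave 8 risers and no faller of 19 measured, from 0.35 to 2.40. Slc7a11, the cystine carrier of the cystine-glutamate exchanger, stood at 23.2, 27.6 and 26.8 in control and 170.0, 106 and 141 with PEE (2.40 ± 0.18, adjusted p = 8.6e-08). Gclm, the modifier subunit of the rate-limiting glutamate-cysteine ligase, stood at 822, 868 and 727 in control and 2583, 2142 and 2643 with PEE (1.61 ± 0.10, adjusted p = 1.3e-08). Its catalytic subunit Gclc changed less and reached 847, 713 and 881 with PEE (1.01 ± 0.12, adjusted p = 2.6e-05). Gss, glutathione synthetase, which adds the last amino acid, followed at 0.91 ± 0.09. Both subunits, the synthetase and the cystine carrier had no overlap between groups. The 11 members that did not pass lay between -0.47 and 0.37.

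In the group of quinone reduction, NADPH supply and the thioredoxin system, 17 of 29 measured members rose and 1 fell (median 0.32). Nqo1, the quinone reductase often used to read NRF2 activity, stood at 46.7, 44.2 and 48 in control and 218, 182 and 218 with PEE (2.15 ± 0.13, adjusted p = 6.5e-09). Srxn1, sulfiredoxin, which repairs over-oxidised peroxiredoxins, stood at 1196, 1271 and 1324 in control and 4730, 3887 and 4759 with PEE (1.81 ± 0.09, adjusted p = 1.5e-09). For both genes the groups were apart on every array. Pgd, which yields NADPH in the pentose phosphate pathway, rose from 1131, 1039 and 1023 to 2392, 2033 and 2503 (1.11 ± 0.10). Cbr3, a carbonyl reductase, rose by 1.02 ± 0.09, Txnrd1, the cytosolic thioredoxin reductase, by 0.95 ± 0.08, and Ptgr1, which reduces enones, by 0.78 ± 0.11. The faller was mitochondrial Idh2 (-0.29 ± 0.06, adjusted p = 0.0057).

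Haem oxygenase Hmox1, which opens the haem ring, stood at 3374, 4317 and 4289 in control and 13470, 13000 and 14700 with PEE (1.79 ± 0.11, adjusted p = 7.1e-09). Blvrb, a biliverdin reductase, rose from 421, 442 and 519 to 1065, 941 and 1179 (1.20 ± 0.10). The ferritin chains that store iron rose less, Ftl1 by 0.76 ± 0.07 and Fth1 by 0.71 ± 0.10. The haem and iron list held 6 risers and 2 fallers of 23 measured. Both fallers make haem: Cpox, coproporphyrinogen oxidase, fell from 279.8, 287 and 272 to 210.2, 184 and 209.7 (-0.48 ± 0.08, adjusted p = 0.0013), and Uros, uroporphyrinogen synthase, changed by -0.27 ± 0.07. The call of Uros was lost in 9 of 18 settings, among them those without control replicate 1, control replicate 3, PEE replicate 2 or PEE replicate 3. Of the catalase, peroxidase and superoxide dismutase list, 5 of 22 rose and none fell. Catalase, Cat, which breaks down hydrogen peroxide, stood at 161, 152 and 147 in control and 306, 308 and 390.2 with PEE (1.12 ± 0.10, adjusted p = 1.1e-06). Prdx6 (0.90 ± 0.10), Prdx1 (0.73 ± 0.07) and the epithelial glutathione peroxidase Gpx2 (0.77 ± 0.15) also rose.

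The regulators of this system moved little. Nfe2l2 stood at 559.8, 575 and 629 in control and 633, 607 and 594 with PEE, a change of 0.06 ± 0.08, adjusted p = 0.71, and the groups overlapped. Keap1 gave -0.09 ± 0.09, adjusted p = 0.59 and Bach1, a repressor that competes for the same sites, 0.16 ± 0.09, adjusted p = 0.29. Only Sqstm1 and Mafg of the 12 members rose. Sqstm1, the p62 adaptor that can sequester KEAP1, stood at 2292, 2508 and 2899 in control and 4113, 4083 and 3964 with PEE (0.67 ± 0.13, adjusted p = 0.0027), and Mafg, a small MAF partner, changed by 0.33 ± 0.07, adjusted p = 0.007. An mRNA level does not measure NRF2 protein, which is mainly controlled by its breakdown.

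**Figure D1:**
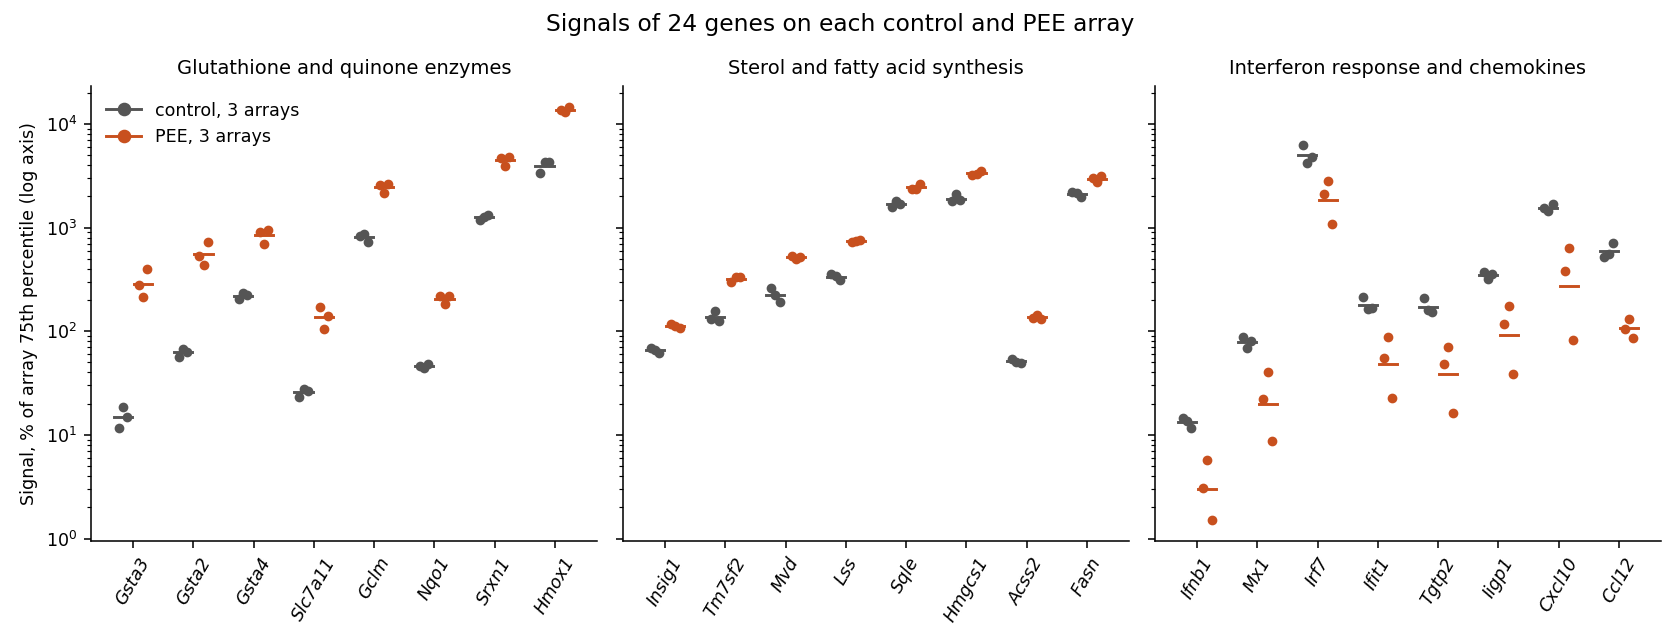
Signal on each of the 3 control (grey) and 3 PEE (orange) arrays as a percentage of the array's 75th percentile, on a log axis; bars are geometric means. For all 24 genes shown the 2 groups do not overlap, and PEE replicate 3 is the lowest array for each of the 8 genes of the right panel. Of all tested genes, 16.5% were separated in this way upward and 16.1% downward.

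The promoters of the risers were searched for the ARE core TGACNNNGC on either strand, from 250 bases before to 50 after the start of transcription, in RefSeq promoters of GRCm38.p6. The core was present in 13.6% of the 17102 promoters of tested genes, in 17.1% of the 911 of genes that rose and in 12.6% of the 1159 of genes that fell. It was found in 3 of 16 promoters of the glutathione transferase risers, 3 of 6 of the glutathione synthesis risers and 5 of 22 of the quinone and NADPH risers. Most promoters of these risers therefore had no match to this core in the window. Nqo1 and Srxn1 had none in the 250 bases before the start. This says nothing about sites elsewhere or about sites that differ from the searched letters, which were not counted. The stretches with a match from Gsta3, Gclm and Abcc4 (an exporter of glutathione conjugates, with 2 starts) are shown because these genes rose and differ in the strand of the core. They are written 5′ to 3′ on the strand of the gene, with the core in capitals.
Gsta3 (chr1:21240434-21240502, plus strand): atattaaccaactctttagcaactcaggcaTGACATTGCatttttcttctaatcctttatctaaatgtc
Gclm (chr3:122245393-122245461, plus strand): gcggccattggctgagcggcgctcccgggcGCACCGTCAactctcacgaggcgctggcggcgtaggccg
Abcc4, start 1 (chr14:118706220-118706274, minus strand): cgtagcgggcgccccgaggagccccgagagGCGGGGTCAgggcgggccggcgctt
Abcc4, start 2 (chr14:118676932-118676984, minus strand): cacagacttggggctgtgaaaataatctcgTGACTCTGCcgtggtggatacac
The core lies on the gene's own strand in Gsta3, 117 bases before the start, and on the opposite strand in Gclm, 130 bases before it. Abcc4 itself changed by 0.85. Of these, Gsta3 belongs to the 4 largest risers of its list; the Gclm and Abcc4 stretches were chosen after the matches were seen.

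Cholesterol is made from acetyl-CoA through mevalonate, squalene and lanosterol. Low sterol in the endoplasmic reticulum is known to release SREBP2, which switches on nearly all enzymes of this route. Skin makes much of its own cholesterol, and follicles depend on this route.

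PEE raised 23 of 28 measured genes of cholesterol synthesis and SREBP2 targets, none fell, and the median change was 0.69, beside 5.20% of all tested that rose. At the entry of the route, Hmgcs1, HMG-CoA synthase, stood at 1797, 2102 and 1825 in control and 3228, 3265 and 3498 with PEE (0.81 ± 0.11, adjusted p = 7.8e-05). In the middle of the route, Mvd, mevalonate diphosphate decarboxylase, stood at 258, 223 and 193 in control and 528, 495 and 521 with PEE (1.20 ± 0.12, adjusted p = 2.5e-06). All 3 PEE arrays exceeded all 3 control arrays for these enzymes. Sqle, squalene epoxidase, rose by 0.53 ± 0.09. Lss, lanosterol synthase, which closes the sterol rings, stood at 355, 338 and 312 in control and 722, 749 and 762 with PEE (1.15 ± 0.08, adjusted p = 2.4e-08). The 3 tested probes of Lss gave 0.38 to 1.15, and 2 of them passed when each probe was tested. Tm7sf2, a sterol reductase late in the route, stood at 132, 155 and 125 in control and 299.9, 332 and 334 with PEE (1.23 ± 0.15, adjusted p = 2.5e-05).

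A feedback gene rose as well. Insig1, which retains SREBP in the endoplasmic reticulum, rose by 0.77 ± 0.14. The gene of the transcription factor itself, Srebf2, stood at 419, 349.5 and 336 in control and 386, 343 and 454 with PEE (0.10 ± 0.10, adjusted p = 0.6), with the groups overlapping. The other 4 members that did not pass, named after their values were seen, were Insig2 (-0.24), Scap (-0.05), Tmem97 (0.10) and Mylip (0.28). Of the 28 members, 25 were higher with PEE on each of the 3 slides.

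Lipid synthesis beyond sterols moved less. Of 28 fatty acid synthesis, desaturation and LXR target genes, 7 rose and none fell (median 0.18). Acss2, which makes acetyl-CoA from acetate, stood at 53.5, 50.9 and 49.3 in control and 135, 144 and 131 with PEE (1.42 ± 0.13, adjusted p = 1.1e-06). Fasn, fatty acid synthase, rose by 0.49 ± 0.08, Scd2, a stearoyl-CoA desaturase, by 0.65 ± 0.09, and Acsl3, an acyl-CoA synthetase, by 0.59 ± 0.14. Acly, ATP-citrate lyase, rose by 0.41 ± 0.06. Pantothenate is the precursor of coenzyme A, and of the 21 measured genes of that pathway 4 rose and none fell. Acss2 and Acly are 2 of those 4. The others are pantothenate kinases: Pank1 stood at 18.2, 19 and 17 in control and 21.8, 24.5 and 24.8 with PEE (0.39 ± 0.10, adjusted p = 0.019), and Pank3 changed by 0.27 ± 0.07, adjusted p = 0.027. The calls of both kinases were lost in 10 of the 18 alternative settings. Vnn1, a pantetheinase, stood at 3.11, 6.39 and 2.64 in control and 3.88, 2.18 and 3.42 with PEE (-0.29 ± 0.40, adjusted p = 0.71) and the groups overlapped. Fatty acid oxidation and PPAR targets held 1 riser and 1 faller of 31.

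The sterol regulatory core TCACNCCAC, searched in the same way, was present in 1 of 18 promoters of the cholesterol list risers and in 1.18% of those of all tested genes. None of the promoters of Tm7sf2, Mvd and Lss held this or another of the 3 cores before the start.

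**Figure D2:**
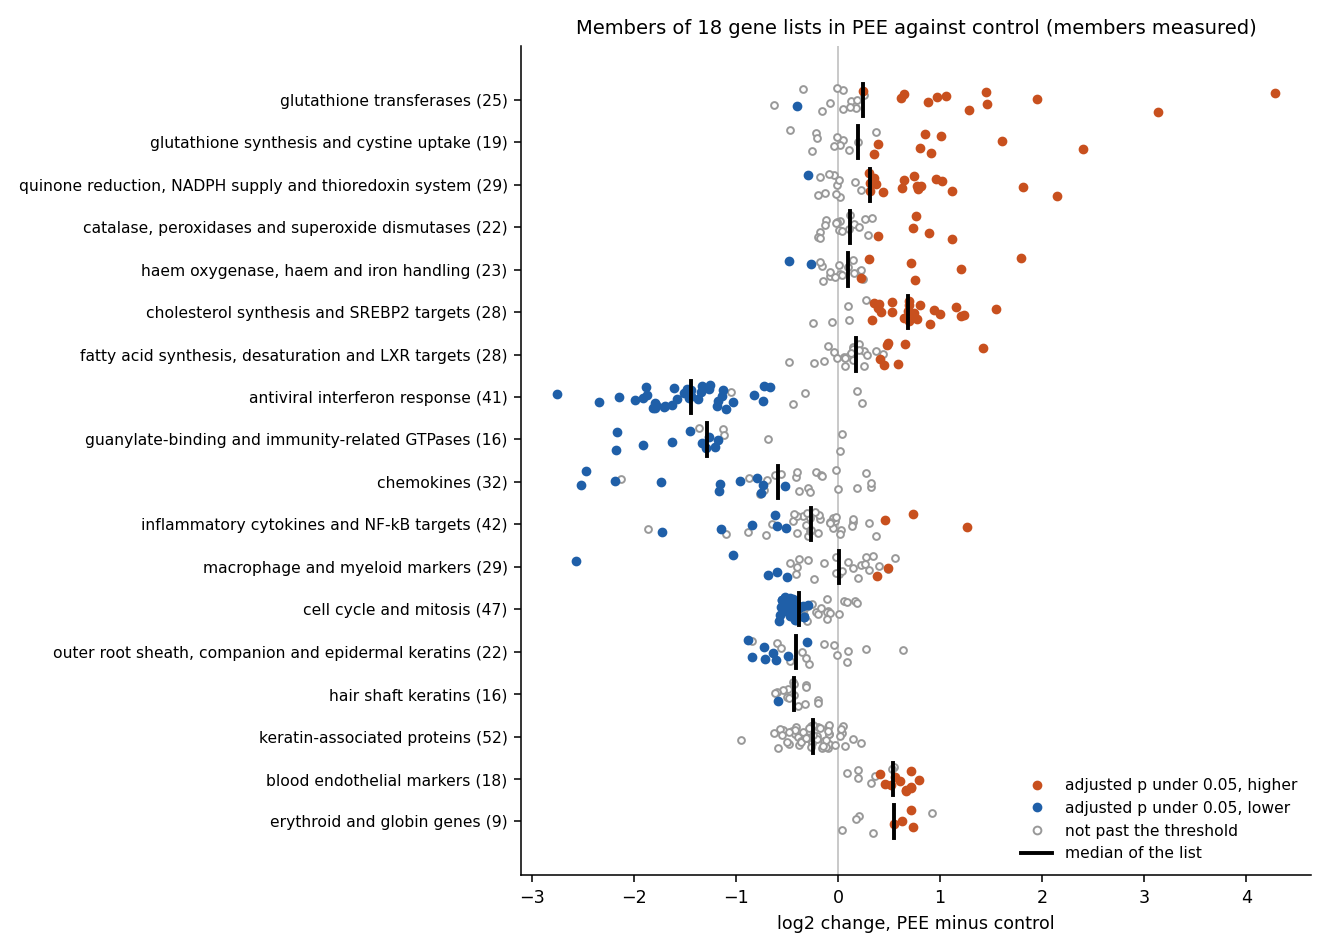
log2 change (PEE minus control) of each measured member of 18 gene lists, with the list median as a black bar. Orange and blue points passed an adjusted p of 0.05; the cholesterol list sits right of 0 with 23 of 28 members past the threshold, and the antiviral list left of 0 with 36 of 41.

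Interferons are secreted when cells sense viral or misplaced nucleic acids. They switch on antiviral effectors whose promoters carry the interferon-stimulated response element (ISRE), and interferon gamma in particular switches on GTPases that attack intracellular microbes.

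In PEE, 36 of 41 measured antiviral interferon response genes fell and none rose (median -1.44), beside 5.69% of all tested that fell. Ifnb1, interferon beta itself, stood at 14.5, 13.7 and 11.8 in control and 3.08, 5.76 and 1.5 with PEE (-2.15 ± 0.48, adjusted p = 0.0073). It was well above background on 2 of the 3 PEE arrays. Irf7, the factor that amplifies interferon production, stood at 6252, 4242 and 4815 in control and 2097, 2833 and 1082 with PEE (-1.44 ± 0.32, adjusted p = 0.0077). Each PEE array was below each control array for both genes, and PEE replicate 3 was the lowest and PEE replicate 2 the highest of the PEE arrays.

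Effectors fell too. Mx1, a GTPase that blocks viral nucleocapsids, stood at 88.7, 68.7 and 79.8 in control and 22.4, 40.4 and 8.65 with PEE (-1.99 ± 0.45, adjusted p = 0.0083). Ifit1, which binds foreign RNA caps, stood at 214, 164 and 169 in control and 54.8, 88.3 and 22.9 with PEE (-1.91 ± 0.41, adjusted p = 0.0057). For both of these PEE replicate 3 was again the lowest. All 5 Ifit genes and all 4 Oas genes (-1.70 to -1.33) of the list fell. Ifit1bl1 stood at 7.03, 3.25 and 5.07 in control and 0.709, 0.728 and 0.734 with PEE and was not well above background on any PEE array, so that it was at least 1.6-fold lower. Ddx60, a helicase of RNA sensing, stood at 8.36, 7.9 and 29.2 in control and 2.62, 2.79 and 2.02 with PEE and was at least 4.08-fold lower by the same bound, or at least 2.67-fold without control replicate 3, the highest array. The bounds of Ddx60 hold for its brightest probe, and its other tested probe gave a smaller fall (-1.365). Such a bound sets the mean of the brighter group against the dimmest signal that was well above background on each array of the dimmer group. With Ifit1bl1 and Ddx60 at their bounds the median of the list was -1.38. The 5 members that did not pass, named after their values were seen, were Rsad2 (-1.05), Ifitm1 (-0.44), Irf1 (-0.33), Ifi27 (0.18) and Isg20 (0.23).

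Of 16 guanylate-binding and immunity-related GTPases, 10 fell and none rose (median -1.28). Tgtp2 stood at 207, 161 and 154 in control and 48.8, 70.8 and 16.3 with PEE (-2.17 ± 0.49, adjusted p = 0.008). Iigp1, which helps to break parasite vacuoles, stood at 369, 319 and 356 in control and 118, 173 and 38.4 with PEE (-1.91 ± 0.47, adjusted p = 0.014). That is its brightest probe, and its other tested probe gave only -0.17. Ifi47 (-1.63 ± 0.36) and Gbp4 also fell. Gbp4 was well above background on 1 of the 3 PEE arrays, so that the size of its fall is uncertain. It lost its call in 6 of 18 settings. Here too PEE replicate 3 was lowest and replicate 2 highest.

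The size of this fall differed between slides. Each slide held 1 control and 1 PEE array, so that differences between slides and between samples cannot be told apart. The antiviral median was -1.40 on slide 1, -0.62 on slide 2 and -2.15 on slide 3, and 39, 39 and 40 of the 41 members were lower with PEE. For the GTPases the medians were -1.40, -0.39 and -2.12. The number of antiviral fallers was 6 without replicate 1, 35 without replicate 2 and 8 without replicate 3 of every group, 10 from the 6 arrays alone and 15 with the array signal as a covariate. The GTPase fallers numbered 0, 11 and 0 without each replicate number in turn, and 1 in each of the last 2 settings. Ifnb1, Irf7, Mx1, Ifit1 and Tgtp2 lost it without replicate 1, without replicate 3, from the 6 arrays alone and with the covariate.

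**Figure D3:**
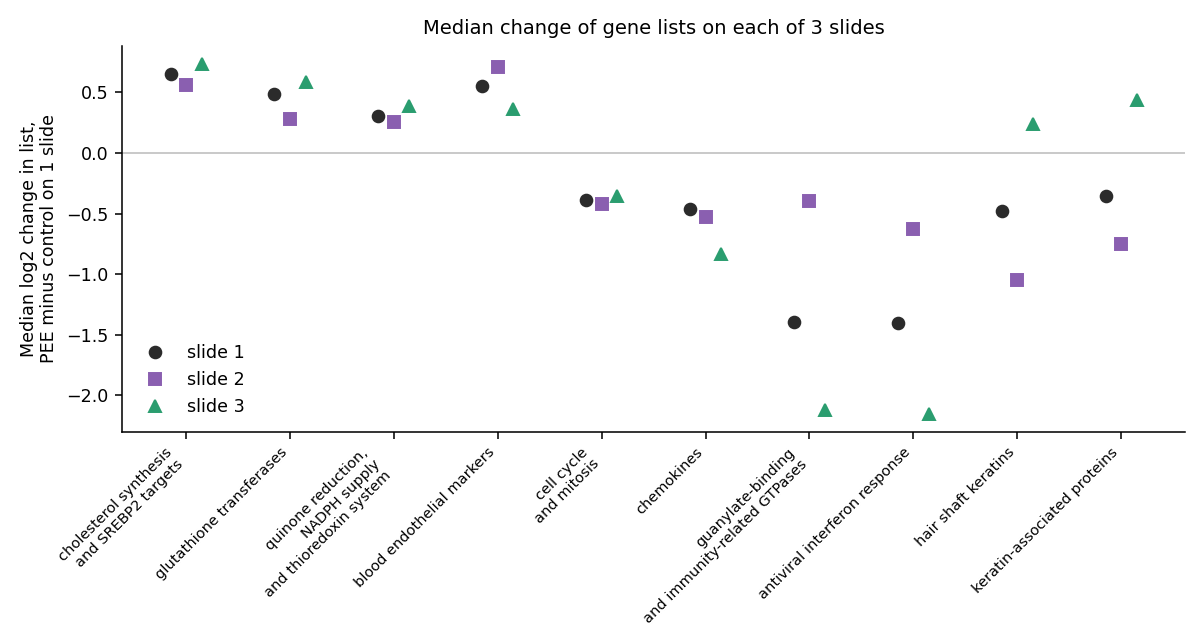
Median log2 change of 10 gene lists on each of the 3 slides, PEE minus control, 1 array of each group per slide. The cholesterol medians lie between 0.56 and 0.74; the antiviral medians spread from -2.15 to -0.62 and the keratin-associated protein medians cross 0.

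The ISRE core, taken as GAAA followed after any 2 bases by a further GAAA, was present in 3.08% of the 17102 promoters of tested genes and in 6.99% of the 1159 promoters of genes that fell. Among the 130 promoters of genes that fell at least 2-fold it was present in 42 (32.3%), against 1.65% of the promoters of genes that rose. It was found in 17 of 32 promoters of the antiviral fallers and in 6 of 8 of the GTPase fallers. The stretches below come from the leading fallers of both lists and show the cores in capitals, 5′ to 3′ on the strand of the gene. They were chosen after the shares were seen. Of the 4 largest fallers of each list, Ifnb1 and Ifi47 had no core before the start. Mx1, Gbp4 and Iigp1 had no promoter to search.
Ddx60 (chr8:61928004-61928086, plus strand): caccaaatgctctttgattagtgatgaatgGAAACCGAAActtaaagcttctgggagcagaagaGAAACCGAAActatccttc
Ifit1bl1 (chr19:34602033-34602102, minus strand): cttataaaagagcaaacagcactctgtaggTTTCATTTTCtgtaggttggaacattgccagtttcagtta
Tgtp2 (chr11:49064243-49064312, minus strand): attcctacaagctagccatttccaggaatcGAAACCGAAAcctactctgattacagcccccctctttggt
Ddx60 holds the core in 2 places on its own strand, 48 and 14 bases before the start. In Ifit1bl1 the core lies on the opposite strand, 99 bases before the start shown, and in Tgtp2 on the gene's strand, 65 bases before it. Ifit1bl1 has 2 starts, and the core lies 18 bases before the other. Each printed stretch holds a single kind of core. A match is a description of letters and not a measured binding site.

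**Figure D4:**
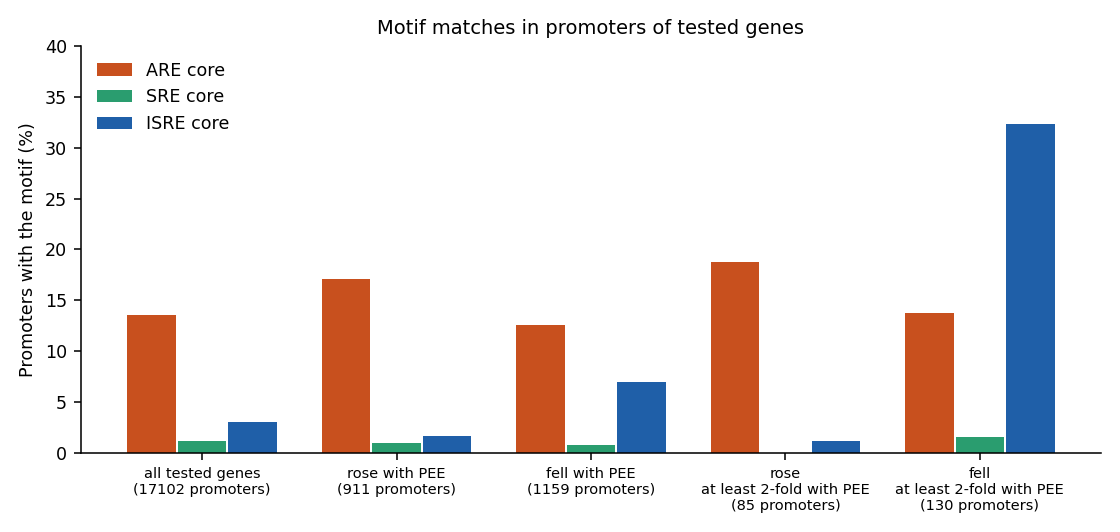
Share of promoters (250 bases before to 50 after the start) that hold each motif core on either strand, for all tested genes and for genes that changed with PEE. The ISRE core stands at 32.3% among genes that fell at least 2-fold and at 3.08% among all tested; the SRE core is rare in every set.

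Chemokines, which draw leukocytes, followed in part: 11 of 32 measured fell and none rose (median -0.59, or -0.54 with 1 dim gene at its bound). Ccl12, a monocyte attractant, stood at 521, 556 and 708 in control and 105, 132 and 87 with PEE (-2.47 ± 0.27, adjusted p = 8.8e-06). Ppbp, the precursor of a neutrophil attractant, stood at 95.2, 119 and 129 in control and 21.5, 19.3 and 37.4 with PEE (-2.19 ± 0.20, adjusted p = 1.1e-06). Ccl11, eotaxin, stood at 320.0, 227 and 334 in control and 99, 108 and 61.5 with PEE (-1.74 ± 0.26, adjusted p = 0.00026). These kept their calls in every setting and their groups did not overlap. Cxcl10, an interferon-induced attractant of T cells, stood at 1528, 1460 and 1671 in control and 379, 637 and 82 with PEE (-2.52 ± 0.71, adjusted p = 0.029), but lost its call in 10 of 18 settings. The number of chemokine fallers was 5 without control replicate 3, 6 without PEE replicate 3, and 4 without replicate 2 as without replicate 3 of every group. Cxcl9, of the same kind, stood at 119, 134 and 89.5 in control and 35.6, 62.2 and 7.68 with PEE and did not pass (-2.13 ± 0.75, adjusted p = 0.08).

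Other inflammatory genes gave fewer calls. Of 42 cytokines and NF-kB targets, 3 rose and 6 fell, beside 5.20% and 5.69% of all tested. The share of risers was thus near that of all genes, and 32 of the 42 were lower with PEE (median -0.27). Il24, a cytokine of wounded epidermis, stood at 34, 31 and 31.8 in control and 15.8, 12.3 and 15.8 with PEE (-1.15 ± 0.15, adjusted p = 8.1e-05). This holds for its brightest probe, and its other tested probe gave a smaller fall (-0.34) that did not pass. Csf2, GM-CSF, stood at 11.8, 15.9 and 18.1 in control and 3.69, 6.23 and 4.14 with PEE (-1.72 ± 0.40, adjusted p = 0.0093), and the adhesion molecule Vcam1 changed by -0.85 ± 0.17 and the alarmin Il33 by -0.61 ± 0.16. In the other direction Il11, of the IL-6 family, stood at 70.2, 78.8 and 77.1 in control and 221, 161 and 165 with PEE (1.26 ± 0.24, adjusted p = 0.0027), beside Il12b (0.74 ± 0.14) and Il1f9 (0.46 ± 0.12). Without replicate 2 of every group 2 of the list fell and none rose.

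Macrophage and myeloid markers did not move as a block: 2 of 29 rose, 5 fell and the median was 0.01. Ms4a4d, at 14.3, 9.74 and 10.5 in control and 2.31, 4.29 and 0.706 with PEE, was among the fallers (adjusted p = 0.023). It was well above background on 1 of the 3 PEE arrays, so that the size of its fall is uncertain, and it lost its call in 9 of 18 settings. Fcgr1, a high-affinity antibody receptor, fell from 94.6, 79.8 and 88.1 to 35.8, 56.5 and 38.9 (-1.02 ± 0.21), and the complement genes C1qa (-0.69 ± 0.17) and C1qc (-0.60 ± 0.13) fell with it. The lysozyme gene Lyz2 (0.49 ± 0.15) and Itgam (0.38 ± 0.11) rose, but lost their calls in 12 and 11 of 18 settings, and neither passed without control replicate 1, control replicate 2, PEE replicate 2 or PEE replicate 3. The other tested probe of Itgam gave -0.08. Without replicate 1 of every group none of the list fell. The summed signal of the list, as percent of the 75th percentile, was 26070, 28240 and 30280 in control and 28210, 30300 and 30350 with PEE.

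Cell division genes fell by a small and even amount: 28 of 47 fell, none rose and the median was -0.38, with slide medians of -0.39, -0.42 and -0.35. The mitotic kinases Aurka and Plk1 stood at 734, 599.6 and 671 in control and 440.4, 405 and 501 with PEE (-0.57 ± 0.11, adjusted p = 0.0023) and at 933, 813 and 867 in control and 578, 536 and 662 with PEE (-0.56 ± 0.10, adjusted p = 0.0014), respectively. Cenpf, of the kinetochore, changed by -0.57 ± 0.11 and Cdc20, activator of the anaphase-promoting complex, by -0.55 ± 0.10. Mki67, the proliferation marker Ki-67, stood at 1009, 898 and 1017 in control and 761, 643 and 783 with PEE (-0.42 ± 0.08, adjusted p = 0.0026). Their groups did not overlap. Of the 6 measured replication licensing genes of the Mcm family, 5 fell. The count of fallers was 0 without replicate 2 of every group, 14 without replicate 1 and 14 without replicate 3, 15 from the 6 arrays alone and 16 with the covariate, while the median stayed between -0.31 and -0.42 in the 18 settings.

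Hair shaft structure genes showed no common call. Of 16 hair shaft keratins 1 fell, Krt85, an early cuticle and cortex keratin, at 1370, 1397 and 1124 in control and 862, 765 and 967 with PEE (-0.58 ± 0.10, adjusted p = 0.00069). None of 52 keratin-associated proteins and none of 18 inner root sheath markers passed. All 16 shaft keratins were lower on average (median -0.44), but their slide medians were -0.48, -1.05 and 0.24, and those of the keratin-associated proteins -0.35, -0.75 and 0.43. The direction on slide 3 was thus opposite to that on the other slides, and without replicate 3 of every group 8 shaft keratins and 7 keratin-associated proteins fell. Among the matrix and shaft regulators, 4 of 33 fell and none rose. Shh, the matrix morphogen, stood at 15.3, 19.7 and 20 in control and 9.53, 12.6 and 9.91 with PEE (-0.78 ± 0.19, adjusted p = 0.013), and its call was lost in 8 of 18 settings. None of these regulators passed without replicate 1, 2 or 3 of every group or with the covariate. Vdr, the vitamin D receptor, stood at 356, 333 and 292 in control and 224, 232 and 225 with PEE (-0.52 ± 0.12, adjusted p = 0.011). Lef1 (-0.35 ± 0.24, adjusted p = 0.4), Foxn1 (-0.38 ± 0.23, adjusted p = 0.32) and Msx2 (0.01 ± 0.24, adjusted p = 0.99), which drive shaft differentiation, did not pass.

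Outer root sheath, companion and epidermal keratins gave 8 fallers and no riser of 22 (median -0.41). Krt10, of suprabasal epidermis, stood at 1649, 1299 and 1114 in control and 593, 848 and 762 with PEE (-0.88 ± 0.20, adjusted p = 0.0096). Krt7 (-0.84 ± 0.16), Krt18 (-0.73 ± 0.15) and Krt78 (-0.72 ± 0.14), of simple and upper sheath epithelium, fell too. The number of fallers in this list was 5 without control replicate 1 and without PEE replicate 1, 3 without replicate 1 and 0 without replicate 2 of every group, 4 from the 6 arrays alone and 2 with the covariate. The stem and progenitor marker Lgr5, a receptor of the lower outer root sheath, stood at 34.5, 39.2 and 37.7 in control and 19.1, 23 and 15.8 with PEE (-0.96 ± 0.17, adjusted p = 0.0013). The 17 measured hair follicle stem cell genes held 2 fallers, Lgr5 and Lrig1 (-0.27), and 1 riser, Cd34 (0.36), and 14 did not pass. Lrig1 and Cd34 lost their calls in 9 and 6 of 18 settings.

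Cornified envelope genes split by family, 6 rising and 6 falling of 43. Of 6 measured Lce3 genes, late envelope proteins linked to barrier repair, 5 rose, whereas none of the 9 Lce1 genes passed. Lce3b stood at 843, 1155 and 1328 in control and 2833, 2105 and 2777 with PEE (1.23 ± 0.20, adjusted p = 0.00067). Lce3c and Lce3d, both at 1.19, are close in sequence to it, so that their probes may not be independent. Of the 9 kallikreins, proteases that shed the horny layer, 4 fell and none rose. Klk14, a trypsin-like member, stood at 74.1, 61.4 and 58.3 in control and 10.5, 13.4 and 18.1 with PEE (-2.23 ± 0.22, adjusted p = 2.9e-06), the largest change of the list, and kept its call in every setting. Sprr4 (-0.91 ± 0.13) and Ivl, involucrin (-0.88 ± 0.16), also fell.

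Genes of contractile and matrix cells fell in smaller numbers. Of 15 dermal sheath and smooth muscle genes 5 fell and none rose. Myl9, a myosin light chain, stood at 1753, 1944 and 1852 in control and 1117, 1052 and 1041 with PEE (-0.79 ± 0.09, adjusted p = 1.6e-05), and Tagln, transgelin, changed by -0.64 ± 0.15. Of 27 fibroblast and matrix genes 6 fell and 2 rose. Thbs1, thrombospondin, stood at 357, 414 and 427 in control and 173, 161 and 146 with PEE (-1.32 ± 0.11, adjusted p = 7e-07). Ccn2, connective tissue growth factor, stood at 1408, 1693 and 1646 in control and 817, 917 and 783 with PEE (-0.91 ± 0.08, adjusted p = 7.1e-07), and Tnc, tenascin C, changed by -1.02 ± 0.17. Their groups were apart on every array. The matrix fallers numbered 3 without any 1 replicate number, and the smooth muscle fallers 1 without replicate 1 as without replicate 2. The metalloproteinases Mmp10 (0.73 ± 0.23) and Mmp9 (0.59 ± 0.16) rose, but lost their calls in 11 and 9 of 18 settings, and neither passed without control replicate 1, control replicate 2 or any 1 of the PEE arrays.

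The series title names signalling by placental growth factor (PlGF) through VEGFR-1, so these genes were read directly. Pgf, the PlGF gene, stood at 95.7, 91.2 and 96.3 in control and 98, 106 and 89.9 with PEE (0.05 ± 0.14, adjusted p = 0.86), and the groups overlapped. Flt1, which encodes VEGFR-1, stood at 144, 154 and 165 in control and 229, 238 and 216 with PEE (0.56 ± 0.15, adjusted p = 0.02). Its call was lost in 8 of 18 settings. The 3 tested probes of Flt1 gave 0.46 to 0.56, and 1 of them passed when each probe was tested. Vegfa, the main VEGF ligand, stood at 620.3, 565 and 617 in control and 621, 833 and 638 with PEE (0.20 ± 0.16, adjusted p = 0.48). Nrp1, a VEGF co-receptor, rose by 0.46 ± 0.08, and the lymphatic ligands Vegfc and Vegfd changed by -0.52 ± 0.12 and -0.46 ± 0.11. Flt1 is also an endothelial marker, and all 18 blood endothelial markers were higher with PEE. Of these, 11 rose (median 0.54), among them the junction-lining Emcn, at 319, 292 and 313 in control and 518, 529.7 and 467 with PEE (0.71 ± 0.17, adjusted p = 0.012), the angiopoietin receptor Tek (0.71 ± 0.17) and Mmrn2 (0.79 ± 0.18). The count was 2 without control replicate 2, 2 without PEE replicate 2, 5 without control replicate 1, 6 without PEE replicate 1 and 2 with the covariate, and 3, 0 and 6 without replicate 1, 2 and 3 of every group. Of 9 erythroid genes 4 rose, namely Alas2 and all 3 measured beta globin genes. Of these, Hbb-bt stood at 39490, 45140 and 54000 in control and 77050, 74130 and 77610 with PEE (0.73 ± 0.10, adjusted p = 0.00013). Neither of the 2 measured alpha globin genes passed (0.18 and 0.21). Whether the beta globin probes are independent of each other was not tested. The erythroid count was 1 without replicate 1, without replicate 2 and with the covariate. The part of blood or vessel content in the Flt1 value was not tested.

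Some of the largest rises lay outside these groups. Map7d2, a microtubule-associated protein, stood at 0.504, 0.561 and 0.606 in control and 8.17, 6.8 and 7.61 with PEE. It was not well above background on any control, PH or TA array. Among these groups it was thus tested only because it was bright with PEE. Only a bound is therefore given, at least 2.92-fold higher. The neurofilament genes Nefl and Nefm rose with it. Nefl, at 0.839, 0.971 and 0.679 in control and 8.13, 6.46 and 5.83 with PEE, had the same limit and was at least 2.62-fold higher. Nefm stood at 4.33, 3.45 and 5.71 in control and 22.9, 19.6 and 22.2 with PEE (2.29 ± 0.24, adjusted p = 5.9e-06). Of 16 neuronal cytoskeleton genes 6 rose, with Map7d2 and Nefl, which were dim in control, among them. Gap43 of growing axons changed by -0.40 ± 0.12, adjusted p = 0.036, but lost its call in 12 of 18 settings. No Schwann cell marker of 14 rose. Gpr20, an orphan receptor, stood at 1.9, 1.21 and 1.09 in control and 8.33, 11.4 and 10.8 with PEE. It was not well above background on any control array and was at least 3.92-fold higher. Rnf183, a ubiquitin ligase, stood at 4.18, 5.55 and 5.36 in control and 20.9, 18.4 and 14 with PEE (1.81 ± 0.24, adjusted p = 7.8e-05). Treml4 rose by 1.76 ± 0.34. Calr3 and Dipk1c were not well above background on any control array and were at least 2.45-fold and at least 1.39-fold higher. The nucleoside carrier Slc28a2 (at least 3.73-fold lower) and the protease inhibitor Spink12 (-2.10 ± 0.50, adjusted p = 0.011) also fell.

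ATF4 targets of the integrated stress response did not move one way: 5 of 30 rose and 10 fell. Slc7a11 (given above), Gdf15, a stress cytokine, at 101, 95 and 107 in control and 190.0, 203 and 222 with PEE (1.02 ± 0.12, adjusted p = 3.1e-05), and Atf5 (0.41 ± 0.05) rose. The serine synthesis enzyme Phgdh, at 1835, 1773 and 1708 in control and 1276, 1048 and 1271 with PEE (-0.57 ± 0.09, adjusted p = 0.0003), fell. So did Psat1 (-0.58 ± 0.10) and Psph (-0.43 ± 0.10) of the same route and Aldh18a1 (-0.49 ± 0.07), which serves proline synthesis. The fallers of this list numbered 4, 2 and 6 without replicate 1, 2 and 3 of every group and 5 with the covariate. Heat shock and endoplasmic reticulum chaperones gave 2 risers of 26, and hypoxia and glycolysis genes 1 of 28.

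PEE was also added to PH, to TA and to PH with TA, and the mean of those 3 effects uses 18 arrays of which none is a PEE-alone or control array. It changed 4398 genes (19.9%), 9.58% higher and 10.4% lower. Of the 1148 genes that rose with PEE alone, 91.1% were higher and 60.1% rose beside the other compounds, and of the 1256 that fell, 99.0% were lower and 80.7% fell. Over all tested genes 49.7% were higher and 50.3% lower. All 12 glutathione transferase risers, all 23 cholesterol risers, all 36 antiviral fallers, all 10 GTPase fallers, all 11 chemokine fallers and all 28 cell division fallers also passed in the same direction. The change beside other compounds was 3.89 ± 0.13, adjusted p = 5e-13 for Gsta3 and 2.00 ± 0.06, adjusted p = 5e-13 for Hmox1. For Lss it was 1.04 ± 0.04, adjusted p = 8.9e-12, for Ccl12 -2.27 ± 0.15, adjusted p = 5.6e-09 and for Mx1 -1.58 ± 0.26, adjusted p = 0.00025.

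Other groups were not seen there in the same way. Of the 11 endothelial risers 1 rose beside the other compounds, and the list median was 0.12. Alas2, the erythroid haem enzyme, went from 0.72 ± 0.15 alone to -0.26 ± 0.09, adjusted p = 0.041. Shh was at 0.01 beside the others, and the hair shaft keratin median at -0.02. Of 186 named genes past the threshold, 177 had the same direction in both sets of arrays, and the other 9 were Alas2, Shh, Slc7a5, Il12b, Aldh1a1, Tyr, Rspo3, Itgam and Tacr2. A direct test of the difference (PEE alone minus PEE beside others) called none of 22065 genes by limma, with 1699 at an unadjusted p under 0.05. Map7d2, at 1.56 beside the others but not well above background in control, was among the nearest (adjusted p = 0.078). With the slide as a block, 23 genes passed this test, and without replicate 1 there was 1.

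**Figure D5:**
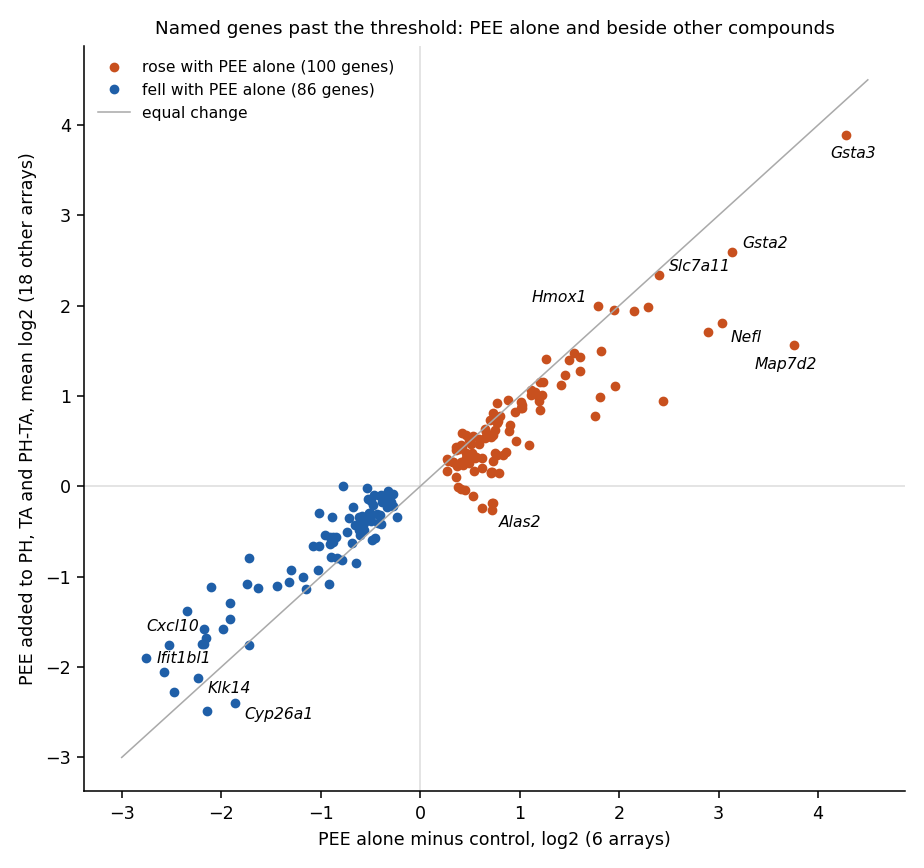
log2 change of the 186 named genes past the threshold with PEE alone (x axis, 6 arrays) against the mean change when PEE was added to the other compounds (y axis, 18 other arrays). Of these genes 177 lie in the same direction on both axes; they were mostly chosen for a large change on the x axis, which favours points below the diagonal on the right and above it on the left. The positions of genes not well above background in 1 group, such as Ifit1bl1 and Map7d2, are fitted values and not bounds.

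PEE at 0.3% differed from PH at 0.015% in 5791 genes (26.2%), 15.3% higher and 11.0% lower. It differed from TA at 0.024% in 5275 genes (23.9%), 14.3% higher and 9.59% lower. These doses differ, and both comparisons share the PEE arrays, as does that with control. The array signal was lower in PEE than in either, and with it as a covariate the counts were 1119 and 1075. The same leading genes stood apart. Gsta3 was at 14.1, 11.8 and 14.5 in PH and 8.21, 8.35 and 6.34 in TA, against 278, 214 and 395 in PEE (4.42 ± 0.22, adjusted p = 5.9e-10 for PEE minus PH; 5.24 ± 0.22, adjusted p = 4.4e-11 for PEE minus TA). Gsta2 exceeded PH by 3.59 ± 0.18, adjusted p = 6.1e-10 and TA by 3.34 ± 0.18, adjusted p = 1.2e-09. Slc7a11 (2.86 ± 0.18, adjusted p = 4.2e-09 against TA), Nefm and Map7d2 also stood apart. The last 2 were not well above background on any PH array and were at least 8.99-fold and 3.14-fold higher with PEE.

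Of the 28 cholesterol genes 24 were higher than in PH and 23 higher than in TA. Of the 25 glutathione transferases 12 and 13 were higher, and of the 41 antiviral genes 24 and 30 were lower. Cell division genes were lower than in TA in 28 of 47 cases and lower than in PH in 7, the latter share being near the 11.0% of all genes lower than in PH. Lower than in both were the retinoic acid hydroxylase Cyp26a1, which was not well above background on any PEE array and was at least 1.63-fold lower than in PH, and Tmem61 (-2.13 ± 0.28, adjusted p = 3.1e-05 against PH). Klk14 (-2.11 ± 0.22, adjusted p = 3.6e-06 against TA), Ppbp (-2.45 ± 0.20, adjusted p = 1.7e-07 against PH) and Hpcal4 (-2.18 ± 0.33, adjusted p = 0.00014 against PH) belonged there as well. Tmem61 and Hpcal4 were well above background on 1 of the 3 PEE arrays. Ifit1bl1, at least 1.13-fold lower than in TA, was measured on 2 of the 3 TA arrays. Hair shaft keratins were lower with PEE than with PH in 9 of 16 cases (median -0.77) and lower than with TA in 9 (median -0.79). Matrix and shaft regulators were lower in 19 and 20 of 33. Foxn1, which drives shaft keratins, stood at 66.7, 53.7 and 70.9 in PEE, 107, 148 and 152 in PH and 90.1, 195 and 98.2 in TA (-1.08 ± 0.23, adjusted p = 0.0019 for PEE minus PH; -0.92 ± 0.23, adjusted p = 0.0067 for PEE minus TA).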

How the data were processed

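RNA of 24 vibrissa follicle cultures was read on one-colour Agilent arrays, and 6 of them (3 PEE, 3 control) make up the main comparison. The deposited intensity values are Agilent Feature Extraction 12.0.3.1 output, per the submitters' processing notes: gProcessedSignal, the background-corrected signal of each spot, with mean and background signals. The deposited log2 value table was used as an alternative, and its scale and centring are not stated; each column was closest to its own array's scan once genes were centred. Depth is not defined for arrays.

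From these, log2(gProcessedSignal) minus each array's 75th percentile was taken, control spots and flagged spots were left out, spots of a probe averaged, and probes kept where well above background on all arrays of at least 1 group (33365 of 56605). A gene took its brightest tested probe, giving 22065 genes or transcripts, 15567 of them with a gene name. limma 3.58.1 (R 4.3.3) fitted 8 group means over 24 arrays, with Benjamini-Hochberg adjustment over all 22065 and a threshold of 0.05. Each slide held 1 array per group and carried a single replicate number. The correlations of same-numbered deviations in PEE and control were 0.01, 0.05 and 0.10, so the numbers were not taken to pair the samples. Between any 2 of the 8 groups they reached 0.27, 0.35 and 0.32 at the highest and -0.19, -0.15 and -0.02 at the lowest, so the slide block was kept as an alternative. The fit was tested on simulated data.

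Members and gene lists were chosen with earlier results of these data known, so list counts have no test. Named genes are the 15 largest rises and falls with separated arrays and a real gene name, up to 4 risers and 4 fallers per list (up to 2 with the lowest p where fewer than 2 passed), a set of fixed genes, and up to 5 each way in the other comparisons. A few of these genes are not reported here. Promoter letters came from the RefSeq table of GRCm38.p6, where 13606 tested genes matched by symbol. Alternatives were quantile and normexp normalization, the deposited table, no filter, the mean of probes, a slide block, another prior, the array signal as covariate, the 6 arrays alone, and leaving out arrays.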

Additional observations from a re-analysis of the deposited data

How the results depend on the processing

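Of the 186 named genes past the threshold in PEE against control, 59 kept their call in all 18 alternative settings. Over these genes and settings, 2670 values kept direction and call, 675 lost the call and 3 changed sign. Quantile normalization, the deposited value table, no filter, the mean of probes, another prior and the slide block moved the 2404 genes of PEE against control by less than 1.5 times. A normexp background gave 5885 (4092 higher), the array signal as covariate 886 (465 higher, 421 lower) and the 6 arrays alone 1065 (613 higher, 452 lower). The PEE arrays were all dimmer than the control arrays, so that this covariate is tied to the groups. Leaving out arrays gave 522 to 1966 genes (253 to 990 higher, 269 to 976 lower), the lowest without replicate 2 of every group. The 6 arrays alone and each leave-out hold fewer samples.

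Against PH, normexp gave 11150, no filter 11991 (over 36593 genes, with a median over all genes of 0.12 in PEE against control), the covariate 1119 and leaving out a replicate number 2462 to 3516. Against TA these were 10650, 11248, 1075 and 2309 to 3267. PEE beside other compounds gave 1771 to 2860 without a replicate number. The test of PEE alone minus PEE beside others gave 23 genes with the replicate block and 0 to 1 without a replicate number. The block, which is also the slide, gave 2623 genes in PEE against control; the numbers were not shown to pair the samples.

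Under normexp the log2 change was 0.0839 for Cyp26a1, 0.10 for Ptger3, 0.0432 for Hpcal4, 0.14 for Vnn1 and -0.0448 for Msx2. With the covariate it was 0.0570 for Keap1, 0.19 for Vnn1, 0.10 for Foxn1 and 0.000256 for Lef1. Msx2 was at -0.0437 in the deposited table and -0.17 as the mean of probes. Leaving out arrays gave -0.0027 to 0.13 for Nfe2l2, -0.18 to 0.0197 for Keap1, -0.0709 to 0.204 for Srebf2, -0.62 to 0.35 for Vnn1, -0.0325 to 0.128 for Pgf and -0.203 to 0.233 for Msx2. The cause was not tested. Low signals limit Cyp26a1, Ptger3, Vnn1 and Hpcal4, which were not well above background on every array.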

Other observations

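Several smaller groups also held calls in PEE against control. Of 20 measured AHR axis and skin cytochrome P450 genes 4 rose and 2 fell, with 2 risers without control replicate 2, control replicate 3 or PEE replicate 3 and 1 with the array signal as a covariate. Ahrr, the AHR repressor and a known target of that receptor, stood at 2.87, 1.78 and 3.39 in control and 9.19, 6.94 and 6.1 with PEE (adjusted p = 0.0022), Cyp2b10 changed by 0.88 ± 0.20 and Cyp1b1 by 0.42 ± 0.12 (lost in 8 of 18 settings), while Cyp1a1, at 73.9, 104 and 107 in control and 128, 147 and 118 with PEE, did not pass (0.48 ± 0.18, adjusted p = 0.1). Cyp2s1 fell from 352, 335 and 330.5 to 159.8, 227 and 169.9 (-0.89 ± 0.17, adjusted p = 0.0023). The other faller counted is Cyp26a1, well above background on 2 of the 3 control arrays and on no PEE array. Its bound against control was 0.96-fold, so that no size of fall can be given. Retinoid genes split, with 3 of 24 rising and 4 falling, and Cyp26a1 with the same limit is 1 of the 4. The risers numbered 1 without control replicate 1 or PEE replicate 3 and 0 without replicate 1 of every group, and the fallers 1 without replicate 1 or 2 of every group and 0 with the covariate. The alcohol dehydrogenase Adh7 (1.03 ± 0.25) and the retinal reductase Rdh11 (0.46 ± 0.09) rose, and the retinal dehydrogenase Aldh1a2, at 161, 249.6 and 152 in control and 81.6, 95.2 and 94.9 with PEE (-1.01 ± 0.21, adjusted p = 0.0051), and the binding protein Crabp1 (-0.50 ± 0.11) were among those that fell. Aox1, an aldehyde oxidase that also acts on vitamin B6 aldehydes, stood at 6.47, 6.99 and 7.51 in control and 21.9, 20.5 and 21.5 with PEE (1.61 ± 0.20, adjusted p = 3.7e-05).

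Signalling genes moved singly. The Notch receptor Notch4, of endothelium, stood at 365, 379 and 351 in control and 632, 669 and 571 with PEE (0.77 ± 0.16, adjusted p = 0.0048), beside its ligand Dll4 (0.83 ± 0.22) and target Hey1 (0.65 ± 0.11). Only these 3 of the 19 measured Notch pathway genes rose, none fell and the median was -0.03. Without replicate 2 of every group none of the list rose, and Dll4 lost its call in 7 of 18 settings. Follistatin, Fst, an activin antagonist, stood at 366, 421 and 469 in control and 227, 229.9 and 214 with PEE (-0.90 ± 0.12, adjusted p = 0.00014), Fgfr3 changed by -0.67 ± 0.11 and the BMP receptor Bmpr1b by -0.65 ± 0.11. Of 13 melanocyte markers 3 rose, led by Ednrb, the endothelin receptor, at 62.8, 59.7 and 61 in control and 122, 130.0 and 107 with PEE (0.97 ± 0.13, adjusted p = 0.00013). The others were Tyr and Gpr143, which lost their calls in 4 and 15 of 18 settings. Gpr143 was well above background on 1 of the 3 control arrays. The count of risers was 1 from the 6 arrays alone and 5 under normexp. Of 18 clock genes none passed, with Dbp nearest at 0.39 ± 0.14, adjusted p = 0.076. Xist, the RNA that coats the inactive X chromosome, stood at 112, 167 and 65.8 in control and 74, 111 and 246 with PEE, at 0.577, 24.1 and 0.542 in PH and at 73, 228 and 148 in TA. It was well above background on 1 of the 3 PH arrays, so that no size is given for the difference between PEE and PH (adjusted p = 0.019), and it did not pass between PEE and control (0.24 ± 1.79, adjusted p = 0.96). The sex of the pups was not given.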
